A study of Mus musculus with 6 samples.

Results

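The genes described here encode heat shock proteins and other molecular chaperones of the mouse. They were chosen by symbol: Hspa, Hspb, Hspd, Hspe, Hsph and Hsp90 genes, Dnaja, Dnajb and Dnajc genes, Cct genes and Bag genes. The rule found 85 of the 21893 genes with a symbol in the array's annotation, each read by its probe of highest mean over the arrays. Neural progenitors (NPC) were cells sorted by flow cytometry on the gfp reporter after 5 days of differentiation in medium with NB27 and Neuro2 supplements. The embryonic stem cells (ESC) were the same cells left undifferentiated. Both came from 46c, a single 129/Ola line whose sox1-gfp reporter follows the neural gene Sox1, and each group had 3 arrays from biological replicates. No gate on gfp is stated in the labels.

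Each value is a log2 signal from a single-colour array, on which 1 unit is a 2-fold difference. Arrays were quantile normalised by the authors and ran from 1.03 to 16.18 with a median of 5.32. Precision is limited by how many arrays there were. Differences are NPC minus ESC ± SE of a limma fit over all genes (n = 3 arrays a group), and p-values are adjusted by the Benjamini-Hochberg method over those 21893 genes with a threshold of 0.05. The labels do not say that replicate numbers pair arrays across groups. They were taken as pairs in an alternative fit, with the replicate number as a block, given where it changes a call. After subtracting group means, arrays of equal number correlated at 0.189, 0.721 and 0.768, but NPC replicate 1 was closer to ESC replicate 2 (0.402). Calls made only with the block rest on that pairing. Of 12 ES cell markers 11 fell and 0 rose, and of 12 neural progenitor markers 11 rose and 0 fell, as the group labels have it. Of 8 neuron markers 6 rose, with list means of 10.89 to 11.42 in NPC and 6.54 to 7.25 in ESC. Of 5 trophectoderm markers 4 fell, with list means of 5.14 to 5.16 in NPC and 7.64 to 7.87 in ESC. In ESC Krt8 and Krt18 had means of 11.73 and 11.96, against 5.2, 7.12 and 2.83 for Cdx2, Eomes and Elf5. Of 5 mesoderm markers 0 rose and 1 fell, and of 5 endoderm markers 1 rose (Foxa2, by 5.69) and 0 fell. Of 5 fibroblast markers 2 rose and 1 fell. Whether cells of these other types were present, and what they contributed to the chaperone values, was not tested. In such bulk samples fewer cells of a type and less RNA per cell cannot be told apart.

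Chaperones bind unfolded or assembling proteins and keep them from aggregating. HSP70 proteins do so in a cycle of ATP binding and hydrolysis that J-domain (DNAJ) proteins start and that nucleotide exchange factors, such as HSP110 and BAG proteins, complete. Small heat shock proteins hold clients without ATP, and HSP90 matures kinases and receptors. The ring-shaped chaperonins (HSP60 with HSP10 in mitochondria, CCT in the cytosol) enclose their clients, which for CCT include actin and tubulin. Heat shock factors bind heat shock elements, arrays of alternating GAA and TTC units, in the promoters of the inducible genes.

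Promoters are shown for some of the genes whose values are described below and whose promoter holds a GAA unit beside a TTC unit. Other such genes, among them Cct2, Cct5, Dnaja1 and Hsph1, are not shown. The stretches come from RefSeq on build GRCm38.p6, read 5′ to 3′ on the gene's strand and ending upstream of the transcription start. Capitals mark each match to GAANNTTC or TTCNNGAA, both of which read the same on either strand. The Hspb1 stretch (chr5:135887719-135887918, plus strand) ends at the base before the start and that of Hspa1a (chr17:34972157-34972356, minus strand) does too. The Hspe1 stretch (chr1:55087998-55088097, plus strand) lies between the start sites of Hspd1 and Hspe1, which run in opposite directions with 215 bases between them. The Dnajb6 stretch (chr5:29735798-29735897, plus strand) ends before the more upstream of its listed starts.
Hspb1: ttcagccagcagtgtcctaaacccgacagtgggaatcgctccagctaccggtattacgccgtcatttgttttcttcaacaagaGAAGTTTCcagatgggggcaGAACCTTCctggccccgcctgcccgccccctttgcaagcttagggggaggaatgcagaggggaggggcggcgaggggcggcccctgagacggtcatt
Hspa1a: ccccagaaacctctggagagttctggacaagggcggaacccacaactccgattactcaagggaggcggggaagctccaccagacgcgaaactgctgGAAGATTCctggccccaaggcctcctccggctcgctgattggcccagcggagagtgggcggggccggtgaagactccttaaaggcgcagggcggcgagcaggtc
Hspe1 and Hspd1: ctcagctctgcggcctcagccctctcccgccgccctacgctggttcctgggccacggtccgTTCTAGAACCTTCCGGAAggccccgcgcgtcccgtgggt
Dnajb6: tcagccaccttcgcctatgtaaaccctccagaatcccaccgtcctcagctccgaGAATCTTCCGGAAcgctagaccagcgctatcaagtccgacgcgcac
Promoter windows of 300 bases, 250 before and 50 after a start, were found for 70 of the 85 chaperone genes. At least 1 match to either motif lay in a window of 20 of these 70 genes (28.6%), against 17% of 27025 genes with a window. Both motifs overlapping in 3 letters, which makes at least 3 alternating units, occurred in 4 of the 70 (Dnajb6, Hspd1, Hspe1 and Hsph1, 5.71%) and in 0.662% of the 27025. Of the 10 genes with a window that also passed the threshold below, Hspb1 and Hspb8 held a match, and the match of Hspb8 lay after the start.

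Among the 85 genes 8 rose and 6 fell in NPC, or 9.41% and 7.06%. Over all genes 11.1% rose and 9.54% fell. A mean under 6 is more common over all genes (42.6%) than among the chaperone genes (18.8%). By the same fit, 7 of the 69 chaperone genes with a mean of at least 6 rose and 4 fell (10.1% and 5.8%). Of all 12566 genes with such a mean 13.9% rose and 10.5% fell, so the brighter chaperone genes were called less often. Whether that gap exceeds chance was not tested. The median difference was -0.10 over the chaperone genes and 0.01 over all genes, and the median size of a difference was 0.52 in both. With the replicate block 15 chaperone genes rose and 18 fell (17.6% and 21.2%), against 18.9% and 16.7% of all genes. The groups did not overlap for 30 of the 85 (35.3%), against 37.0% of all genes. Each array was also centred on genes with a mean of at least 8, which shifts all differences by -0.101. Then 8 chaperone genes rose and 11 fell, against 2406 and 2477 of all 21893 genes. Of the 14 that passed, 4 were small heat shock genes and 3 were divergent relatives of HSP70, and Hspa8, Hsp90aa1, Hspa5 and Hspd1, all abundant, did not pass.

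**Figure D1:**
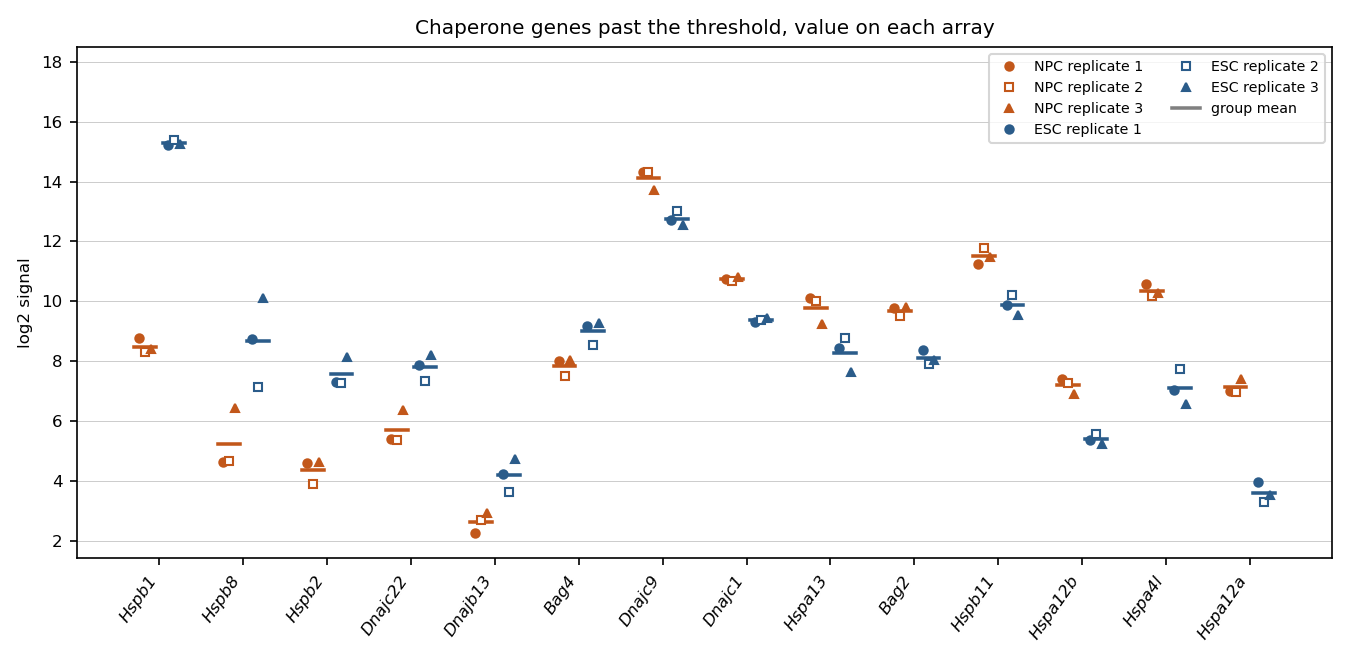
Log2 signal on each of the 6 arrays for the 14 chaperone genes past the threshold, ordered by their difference, with NPC points left of ESC points, symbols for replicates and bars for group means. Hspb1 lies between 8.30 and 8.76 in NPC and above 15 in ESC, and for each of the 14 genes the groups do not overlap.

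Small heat shock proteins held the largest change of the set. Hspb1, which encodes HSP27, a protein that holds unfolding clients and binds actin, had 8.76, 8.30 and 8.39 in NPC, against 15.21, 15.38 and 15.27 in ESC. Every ESC array was thus far above every NPC array. It fell by 6.81 ± 0.20, a 112-fold difference (limma adjusted p = 5.76e-05), and the fall was at least 6.71 in size without any one array. Hspb2, a small heat shock protein best known from muscle, had 4.60, 3.90 and 4.61 in NPC, against 7.30, 7.25 and 8.14 in ESC. Hspb2 fell by 3.19 ± 0.35 (limma adjusted p = 0.0019). Its NPC values lie near the bottom of the scale, and the fall was 1.56 (adjusted p = 0.0352) under a floor of 6, to which all lower values were raised. The floor was set for all genes before the fit. Through the variance prior and the adjustment, it can thus move the p-value of a gene with no value under 6.

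Hspb8, a partner of Bag3 in the disposal of misfolded proteins, had 4.64, 4.65 and 6.42 in NPC, against 8.73, 7.14 and 10.11 in ESC. Replicate 3 was the highest array of both groups, and the groups did not overlap. It fell by 3.42 ± 0.87 (limma adjusted p = 0.0418, 0.00446 with the replicate block). The call of Hspb8 ended under the floor of 6 (-2.52, adjusted p = 0.168). It also ended without ESC replicate 1, ESC replicate 3, NPC replicate 1 or NPC replicate 2, with differences of -4.18 to -2.70 over all 6 such fits. Bag3 itself, a stress-inducible BAG protein, had 8.36, 8.21 and 7.77 in NPC, against 9.36, 9.74 and 8.73 in ESC. The groups of Bag3 did not overlap, and its difference of -1.17 ± 0.32 passed with the block (limma adjusted p = 0.055, 0.0125 with the replicate block). Without the block Bag3 passed in 1 of the 6 fits that left out an array, with centring and among genes with a mean of at least 6.

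Hspb11 was the 1 member of the small heat shock group that rose. It is also known as IFT25, a subunit of the intraflagellar transport machinery of cilia, and had 11.24, 11.78 and 11.49 in NPC, against 9.89, 10.22 and 9.53 in ESC. It rose by 1.62 ± 0.26 (limma adjusted p = 0.00826). Its other probe, at 1.27 to 3.71 on all arrays, gave 0.04, and the mean of both probes did not pass (0.83, adjusted p = 0.207). The other 4 members did not pass. Hspb6, which encodes HSP20, differed by 0.61 and Hspb9 by -0.37, and the dim Hspb3 and Hspb7 by 0.61 and -0.20. Across the 8 members 1 rose and 3 fell, against 11.1% and 9.54% of all genes, with a median difference of -0.28. The replicate block gave the same counts, against 18.9% and 16.7% of all genes. Of the 8 members 3 had a mean under 6, and of the 3 falls that of Hspb8 ended under the floor. Whether counts in so small a family differ from the shares of all genes was not tested.

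In the HSP70 family 3 of 10 members rose and 0 fell, against 11.1% and 9.54% of all genes. With the replicate block the same 3 rose, and 2 fell (Hspa1a and Hspa9), against 18.9% and 16.7% of all genes. Whether such small counts differ from those shares was not tested. The 3 that rose are divergent relatives rather than general folding factors. Hspa12a, a distant HSP70 relative, had 7.0, 6.98 and 7.39 in NPC, against 3.94, 3.29 and 3.53 in ESC. It rose by 3.54 ± 0.25 (limma adjusted p = 0.000432), but by 1.13 under the floor of 6 (adjusted p = 0.0108), since all its ESC values lie under that floor. Hspa12b, its paralog known from endothelial cells, had 7.41, 7.28 and 6.90 in NPC, against 5.36, 5.56 and 5.22 in ESC, and rose by 1.82 ± 0.22 (limma adjusted p = 0.00274). A second Hspa12b probe, at 1.37 to 3.20, gave -0.91 without a call, and with the mean of both probes the difference was 0.45 (adjusted p = 0.274). With values under 6 set to 6 the rise of Hspa12b was 1.20. Hspa13, a microsomal HSP70 that lacks the usual substrate-binding domain, had 10.12, 10.01 and 9.24 in NPC, against 8.45, 8.76 and 7.64 in ESC. The lowest array of each group was replicate 3. Hspa13 rose by 1.51 ± 0.39 (limma adjusted p = 0.0453, 0.00455 with the replicate block). Its call ended without ESC replicate 1, ESC replicate 3, NPC replicate 1 or NPC replicate 2 (differences of 1.18 to 1.78 over 6 fits). The same call ended under the floor of 6 (1.51, adjusted p = 0.112), with the mean of its 2 probes (0.98, adjusted p = 0.203) and with a mean-dependent, robust variance prior. None of the Hspa13 values above lies under 6, so the floor moved the p-value and not the difference.

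The general HSP70 genes did not pass. Hspa8, the constitutive HSC70 of the cytosol, had 15.21, 15.25 and 15.03 in NPC, against 15.28, 15.40 and 15.11 in ESC, a difference of -0.10 ± 0.18. Hspa5, the BiP chaperone of the endoplasmic reticulum (ER), had 14.71, 14.87 and 14.07 in NPC, against 14.06, 14.62 and 13.36 in ESC. It differed by 0.54 ± 0.39, with replicate 3 lowest in both groups. Hspa9, the mitochondrial HSP70, had 11.67, 11.15 and 12.46 in NPC, against 13.18, 12.00 and 13.45 in ESC. Its groups overlapped, yet each NPC array was lower than the ESC array of the same number, and its difference of -1.12 ± 0.51 passed with the block alone (limma adjusted p = 0.205, 0.0158 with the replicate block). Hspa1a, the main heat-inducible HSP70, had 4.91, 4.12 and 6.04 in NPC, against 6.59, 6.70 and 7.39 in ESC. It differed by -1.87 ± 0.53 and likewise passed with the block (limma adjusted p = 0.0582, 0.0123 with the replicate block) and, without it, in 1 of the 6 fits that left out an array. Hspa1a has a near-identical copy in the genome, Hspa1b, which is not analysed here, so its probe may read both. Hspa14 and Hspa1l differed by -0.37 and 0.46 and Hspa2 by 0.00.

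Of the HSP110 genes, whose products exchange nucleotide on HSP70, Hspa4l rose and the others did not pass. Hspa4l had 10.59, 10.17 and 10.28 in NPC, against 7.03, 7.72 and 6.55 in ESC. It rose by 3.25 ± 0.34, a 9.49-fold difference (limma adjusted p = 0.00161), and by 2.97 to 3.56 without any one array. Its paralog Hspa4 had 13.75, 13.86 and 12.99 in NPC, against 14.30, 14.72 and 13.43 in ESC, a difference of -0.62 ± 0.42 (limma adjusted p = 0.398, 0.0434 with the replicate block). The probes of Hspa4 gave -0.62, 0.41 and -0.21. Hsph1, the heat-inducible HSP105, had 11.90, 11.30 and 11.87 in NPC, against 12.26, 12.15 and 11.74 in ESC, and differed by -0.36 ± 0.26.

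**Figure D2:**
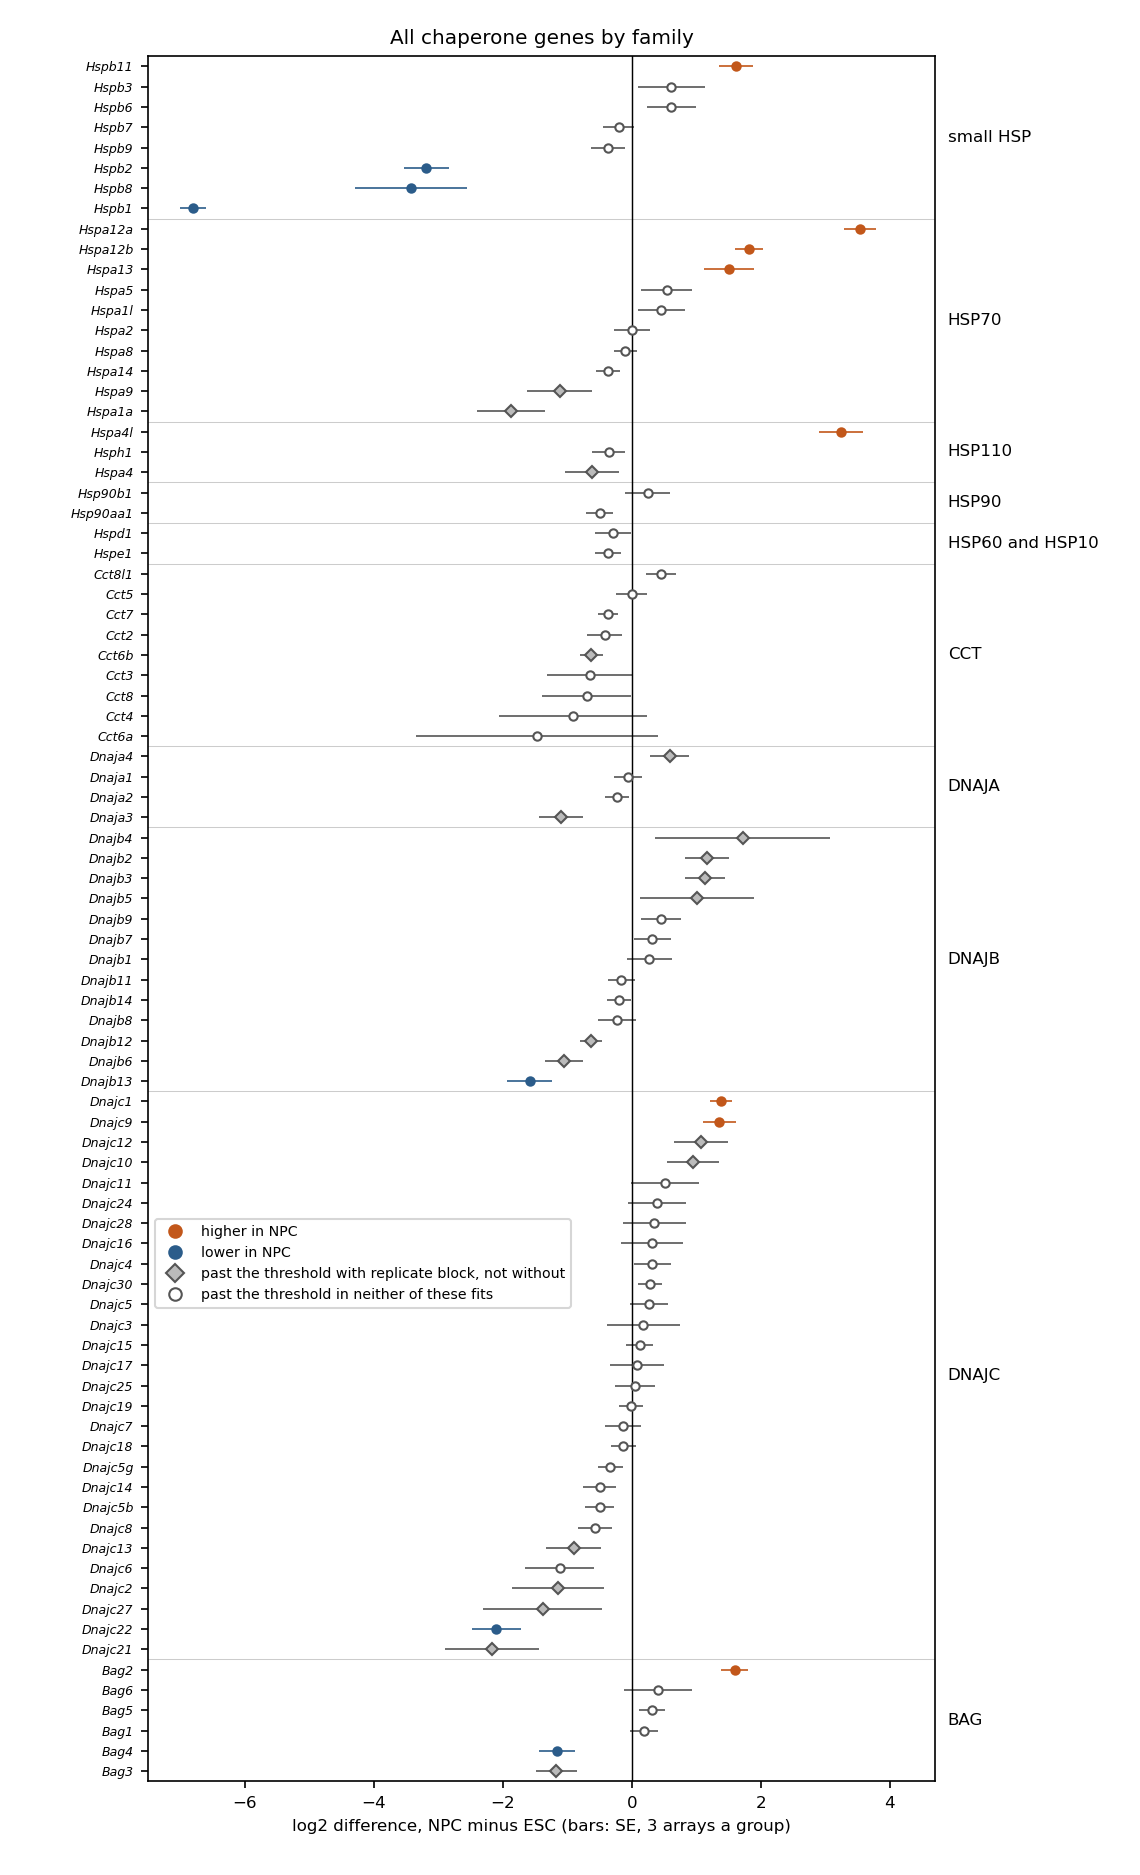
Log2 difference of NPC minus ESC (horizontal axis) for the 85 chaperone genes by family, with SE bars from 3 arrays a group. Filled circles mark the 8 genes that rose and the 6 that fell, grey diamonds the 19 that passed with the replicate block and not without it, and open circles the 52 that passed in neither fit.

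Both HSP90 genes and both mitochondrial chaperonin genes stayed short of the threshold (limma, 0 of 4, with 0 of 4 at an unadjusted p under 0.05 and 0 of 4 with the replicate block). Of all genes 20.6% passed, or 35.7% with the block. Hsp90aa1, the inducible cytosolic HSP90, had 15.31, 15.26 and 14.79 in NPC, against 15.63, 15.65 and 15.59 in ESC. All its ESC arrays were higher than all its NPC arrays, and the difference was -0.50 ± 0.21 (limma adjusted p = 0.168). Hsp90b1, the ER paralog GRP94, had 13.78, 13.49 and 13.15 in NPC, against 13.63, 13.46 and 12.57 in ESC, and differed by 0.25 ± 0.35. Hsp90ab1 is not analysed here. Hspd1, which encodes HSP60, had 14.66, 14.80 and 14.03 in NPC, against 14.78, 15.04 and 14.53 in ESC. Hspe1, its HSP10 lid, had 14.80, 14.66 and 14.41 in NPC, against 15.04, 15.13 and 14.80 in ESC. The pair, which shares the promoter region printed above, differed by -0.29 ± 0.28 and -0.37 ± 0.20. All 3 Hspe1 probes gave a negative difference, of -0.37, -0.51 and -0.67.

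Of the 9 CCT genes 0 passed (limma, with 1 at an unadjusted p under 0.05), against 20.6% of all genes. With the replicate block 1 passed (11.1%, against 35.7%). The array had probes for Cct2, Cct3, Cct4, Cct5, Cct6a, Cct7 and Cct8, subunits of the ring, and for Cct6b and Cct8l1. Cct7 had 14.19, 14.19 and 14.15 in NPC, against 14.54, 14.53 and 14.57 in ESC. Those groups were tight and did not overlap, with a difference of -0.37 ± 0.16 (limma adjusted p = 0.181). Cct7 passed with a mean-dependent, robust variance prior (adjusted p = 0.0338) and under the floor of 6 (adjusted p = 0.00101). No Cct7 value lies under 6, so the floor moved the p-value and left the difference at -0.37. Cct5 had 14.75, 14.88 and 14.31 in NPC, against 14.51, 14.91 and 14.53 in ESC, and differed by 0.00 ± 0.24. Cct2 had 13.92, 13.67 and 14.19 in NPC, against 14.41, 13.94 and 14.71 in ESC, and differed by -0.42 ± 0.27, with replicate 2 lowest and replicate 3 highest in both groups.

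The remaining 4 subunits showed that order with far wider steps than Cct2, and all were lowest in replicate 2 and highest in replicate 3 in both groups. Cct6a had 8.92, 7.52 and 13.13 in NPC, against 11.81, 8.48 and 13.70 in ESC. Replicate 3 exceeded replicate 2 by 5.61 in NPC and 5.21 in ESC, and the difference between groups was -1.47 ± 1.88. Cct4 had 11.93, 10.64 and 14.04 in NPC, against 13.46, 11.29 and 14.59 in ESC, a difference of -0.91 ± 1.15. Cct8 had 12.62, 11.85 and 13.88 in NPC, against 13.73, 12.41 and 14.32 in ESC, and differed by -0.70 ± 0.69. Cct3 had 12.25, 11.41 and 13.40 in NPC, against 13.40, 11.93 and 13.67 in ESC, and differed by -0.65 ± 0.67. In each of these 4 genes every NPC array lay under the ESC array of the same number, but none passed with the block either (adjusted p of 0.0549 to 0.0982). Cct6b, a paralog known from testis, had 5.14, 5.45 and 5.36 in NPC, against 5.97, 6.01 and 5.85 in ESC. Cct6b differed by -0.63 ± 0.18 (limma adjusted p = 0.0614, 0.0373 with the replicate block) and passed with centring too. Its values lie near or under 6, and under that floor almost no difference was left (adjusted p = 0.832). Tcp1, the remaining ring subunit, had 11.45, 10.66 and 13.77 in NPC, against 12.84, 10.91 and 13.93 in ESC, the same order of replicates.

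**Figure D3:**
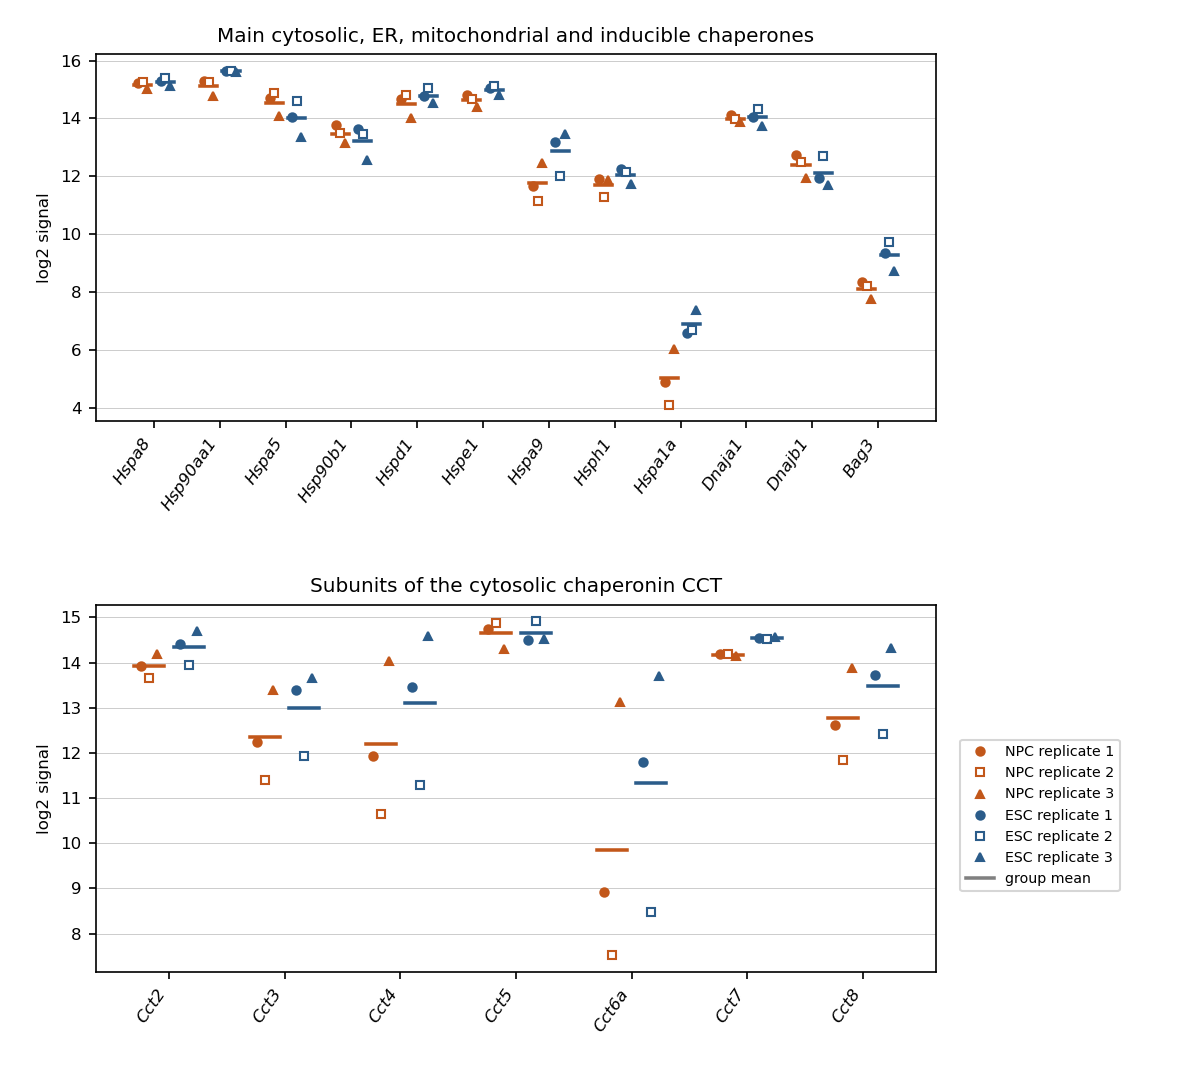
Log2 signal on each array for 12 general and inducible chaperone genes (top) and 7 CCT subunits (bottom), NPC points left of ESC points, symbols for replicates and bars for group means. Cct5 and Cct7 stay within 0.6 in each group, whereas Cct6a runs from 7.52 to 13.13 in NPC and from 8.48 to 13.70 in ESC, in the same order of replicates.

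The swing with replicate number depended on the probe. Of the 85 genes 22 (25.9%) had a mean of replicate 3 that differed by at least 1 from that of replicate 2, as did 27.5% of all genes. Of the 30 chaperone genes with several probes, 14 had probes whose step between replicates 2 and 3 differed by at least 2. The same count was not made over all 6807 genes with several probes, so it may not be particular to chaperone genes. Hspa8 showed the largest such gap among the 30. Its first and second probe gave the steady values above and 15.05, 14.80 and 14.82 in NPC, against 15.03, 14.99 and 14.74 in ESC. The third Hspa8 probe gave 7.98, 7.27 and 14.79 in NPC, against 11.79, 8.37 and 15.21 in ESC. It met the other probes on the replicate 3 arrays and fell far below them on the rest, and its difference was -1.77 ± 2.61. Dnajb6 had 2 steady probes and 2 such probes, of which the fourth gave 5.41, 4.82 and 11.68 in NPC, against 8.42, 6.18 and 12.55 in ESC. The second probe of Hsph1 gave 9.42, 8.62 and 11.53 in NPC, against 10.94, 9.93 and 11.38 in ESC. What sets these probes apart was not tested, and the positions of the probes in the transcripts are not in the tables used here.

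**Figure D4:**
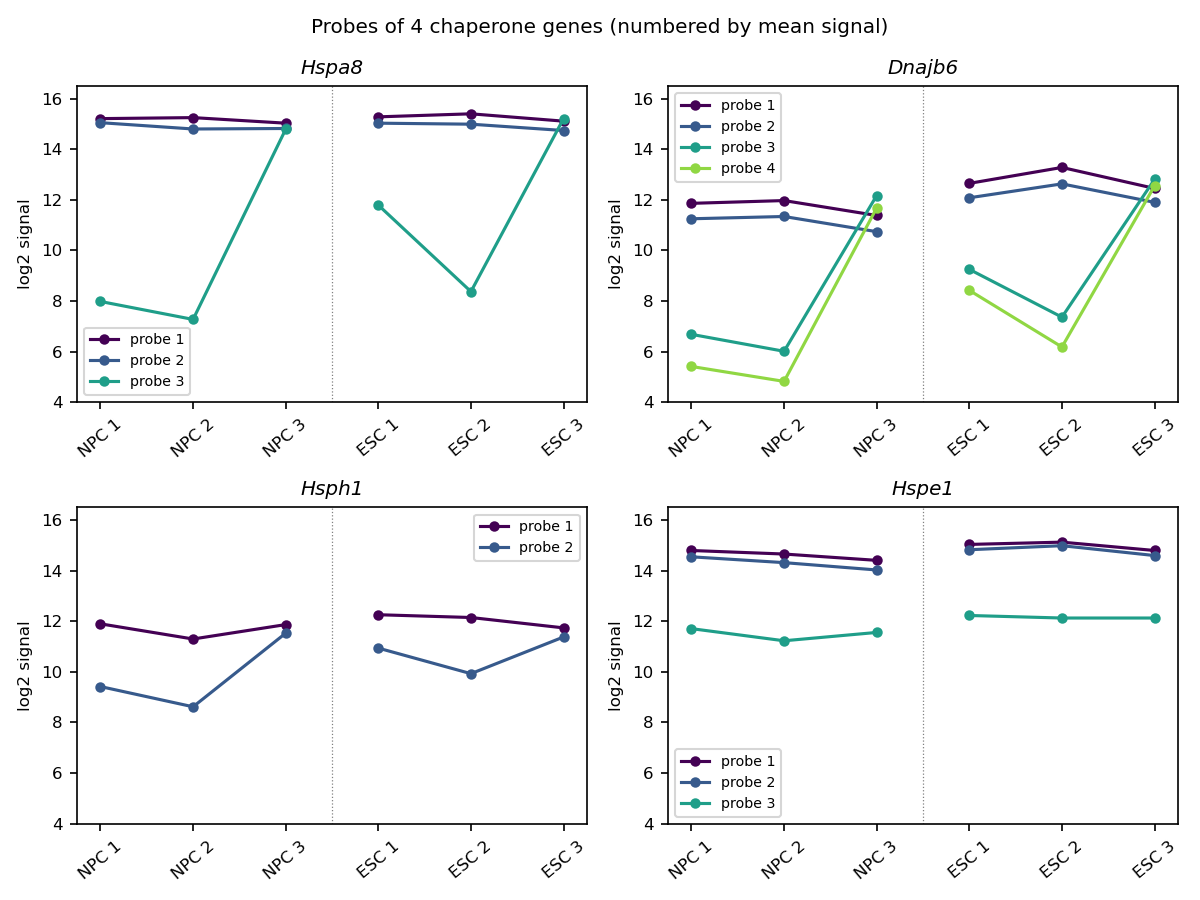
Log2 signal of each probe of Hspa8, Dnajb6, Hsph1 and Hspe1 on the 3 NPC arrays (left) and the 3 ESC arrays (right), with lines joining the arrays of a group and probes numbered by mean signal. The third probe of Hspa8 reads 7.27 to 14.79 in NPC and 8.37 to 15.21 in ESC while its first probe stays between 15.03 and 15.40, and the 3 probes of Hspe1 run side by side.

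J-domain proteins, which bring clients to HSP70 and set off its ATP hydrolysis, made up 45 of the genes. Of 4 DNAJA genes 0 passed (limma; 1 at an unadjusted p under 0.05, 2 with the replicate block). Dnaja1, a general cytosolic member, had 14.12, 13.98 and 13.87 in NPC, against 14.05, 14.34 and 13.75 in ESC. Dnaja3, the mitochondrial member, had 11.24, 11.17 and 10.43 in NPC, against 12.25, 12.37 and 11.53 in ESC. Its groups did not overlap, and its difference of -1.10 ± 0.34 passed with the block (limma adjusted p = 0.0767, 0.00658 with the replicate block) and with centring.

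Of the 13 DNAJB genes 1 fell and 0 rose (7.69% and 0.0%, against 9.54% and 11.1% of all genes). With the block 4 rose and 3 fell (30.8% and 23.1%, against 18.9% and 16.7%). The 1 that fell without the block was Dnajb13, a protein of motile cilia and sperm tails. It had 2.24, 2.67 and 2.92 in NPC, against 4.24, 3.61 and 4.71 in ESC. Dnajb13 fell by 1.58 ± 0.35 (limma adjusted p = 0.0252), but all its values lie under 6, and with that floor it had no difference. Its call also ended without ESC replicate 1, ESC replicate 3, NPC replicate 1 or NPC replicate 2 (differences of -1.87 to -1.32 over 6 fits). Dnajb1, the heat-inducible HSP40, had 12.73, 12.49 and 11.93 in NPC, against 11.96, 12.69 and 11.69 in ESC, a difference of 0.27 ± 0.35. Dnajb6, a suppressor of polyglutamine aggregation whose promoter is printed above, had 11.86, 11.97 and 11.38 in NPC, against 12.65, 13.28 and 12.45 in ESC. It differed by -1.05 ± 0.30 and by -1.09 at its second steady probe, and passed with the block (limma adjusted p = 0.0586, 0.0129 with the replicate block). Without the block it passed with centring and among genes with a mean of at least 6.

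The other DNAJB genes that passed with the block but not in the fit without it went both ways. Dnajb2, a J-domain protein abundant in neurons, had 9.40, 9.17 and 10.15 in NPC, against 8.41, 8.04 and 8.75 in ESC, with no overlap (1.17 ± 0.34, limma adjusted p = 0.0609, 0.00804 with the replicate block). Dnajb4 had 5.32, 4.83 and 8.96 in NPC, against 3.80, 3.54 and 6.62 in ESC, and followed the replicate number as Cct6a did (1.72 ± 1.36, adjusted p = 0.0114 with the block). Dnajb5 and Dnajb3 differed by 1.01 and 1.13, and Dnajb12, an ER membrane J-protein, by -0.63 (adjusted p = 0.0193, 0.0333 and 0.027 with the block). Without the block, Dnajb3 passed under the floor (adjusted p = 0.0254), without ESC replicate 3 and among genes with a mean of at least 6. Dnajb12 passed under the floor (adjusted p = 0.016), though it has no value under 6, and with centring. Dnajb2 passed among genes with a mean of at least 6. Second probes of Dnajb2 and Dnajb5 gave 0.15 and -0.15, and the means of their probes gave 0.66 and 0.43. Dnajb14, also of the ER membrane, differed by -0.20 at the probe used, whereas its other probe gave 1.52 ± 0.24 (limma adjusted p = 0.00926 over all probes). That was the 1 of 40 other probes of chaperone genes that passed.

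Of the 28 DNAJC genes 2 rose and 1 fell (7.14% and 3.57%, against 11.1% and 9.54% of all genes). Dnajc1, an ER membrane protein that binds ribosomes, had 10.74, 10.67 and 10.82 in NPC, against 9.29, 9.36 and 9.44 in ESC. It rose by 1.38 ± 0.17 (limma adjusted p = 0.00283). Dnajc9, a histone chaperone with a J domain, had 14.33, 14.31 and 13.71 in NPC, against 12.70, 13.01 and 12.56 in ESC. It rose by 1.36 ± 0.25 (limma adjusted p = 0.0142), a call that ended without ESC replicate 1, NPC replicate 1 or NPC replicate 2 (1.25 to 1.56 over 6 fits). Dnajc22, whose fly counterpart acts in endocytosis, had 5.38, 5.35 and 6.38 in NPC, against 7.88, 7.34 and 8.19 in ESC. It fell by 2.10 ± 0.38 (limma adjusted p = 0.0126), and the call ended without ESC replicate 1 or NPC replicate 1 (-2.43 to -1.90 over 6 fits).

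With the block 4 DNAJC genes rose and 5 fell (14.3% and 17.9%, against 18.9% and 16.7% of all genes). Dnajc21, which acts in the making of the large ribosomal subunit, had 8.49, 7.73 and 9.74 in NPC, against 11.37, 9.57 and 11.53 in ESC. Replicate 2 was lowest in both groups, and NPC was lower by 1.79 to 2.88 within each replicate (-2.17 ± 0.73, limma adjusted p = 0.0953, 0.00766 with the replicate block). Its other probes gave -2.51 and -0.49. Dnajc2, a ribosome-associated J-protein, differed by -1.14 ± 0.71 (limma adjusted p = 0.353, 0.0244 with the replicate block), and by -0.64 with the mean of its probes. Dnajc13 of endosomes and Dnajc27 differed by -0.90 and -1.38 (adjusted p = 0.0296 and 0.00465 with the block), Dnajc27 with no difference left under the floor. Dnajc10, an ER disulfide reductase, and Dnajc12, a partner of aromatic amino acid hydroxylases, differed by 0.95 and 1.07 (adjusted p = 0.0181 and 0.0362 with the block). The other Dnajc10 probe, dimmer, gave -0.50, and the mean of both was 0.22. Dnajc5, the cysteine string protein of synaptic vesicles, had 15.03, 15.40 and 14.56 in NPC, against 14.60, 15.07 and 14.50 in ESC, and differed by 0.27 ± 0.29. Its other 3 probes gave -0.36, -0.79 and -0.21, and the mean of all 4 gave -0.27.

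BAG proteins release nucleotide from HSP70, and here 1 of 6 rose and 1 fell (16.7% each, against 11.1% and 9.54% of all genes). Bag2, an inhibitor of the ubiquitin ligase CHIP, had 9.76, 9.49 and 9.81 in NPC, against 8.36, 7.90 and 8.02 in ESC. It rose by 1.6 ± 0.21, a 3.02-fold difference (limma adjusted p = 0.00398), and by 1.5 to 1.73 without any one array. Bag4, a silencer of death receptors, had 7.99, 7.49 and 8.02 in NPC, against 9.17, 8.55 and 9.27 in ESC. It fell by 1.16 ± 0.28 (limma adjusted p = 0.0353), and the call held only without ESC replicate 2 among the fits that left out an array (-1.39 to -0.99). It ended too under the floor of 6 (-1.16, adjusted p = 0.0712), though no Bag4 value lies under 6. Bag1, Bag5 and Bag6 differed by 0.19, 0.31 and 0.41.

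The 52 genes past the threshold in neither fit had differences of -1.47 to 0.61, with a median of -0.03, and 50 of them differed by less than 1. In 30 of the 85 genes all 3 NPC arrays were higher than the ESC array of the same number, and in 36 all 3 were lower (35.3% and 42.4%), against 33.6% and 32.1% of all genes. A mean under 6 was found for 16 of the 85 (18.8%), against 42.6% of all genes.

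Of 107 measured partners and regulators of the chaperones, 3 rose and 9 fell (2.80% and 8.41%), against 11.1% and 9.54% of all genes. With the block 11 rose and 21 fell (10.3% and 19.6%), against 18.9% and 16.7% of all genes. Of 6 heat shock factors and genes named for binding them 0 rose and 2 fell, both dim, namely Hsbp1l1 (-3.22 ± 0.44) and Hsf5 (-2.44 ± 0.57). Under the floor these were -0.06 and -0.08 without a call, and the call of Hsf5 held only without NPC replicate 1 among the fits that left out an array. Hsf2, a heat shock factor, had 10.37, 10.26 and 8.91 in NPC, against 9.86, 9.82 and 8.37 in ESC, and differed by 0.50 ± 0.58 (limma adjusted p = 0.641, 0.048 with the replicate block). Hsf1 is not analysed here. Of 37 co-chaperones of HSP90 and HSP70 1 rose and 3 fell (2.7% and 8.11%, against 11.1% and 9.54% of all genes). With the block 4 rose and 10 fell (10.8% and 27.0%, against 18.9% and 16.7%). Hspbap1, a binder of Hspb1, fell by 1.77 ± 0.41 at values of 1.96 to 3.37 in NPC and 4.13 to 4.77 in ESC, all under the floor, and its call ended without NPC replicate 1 or any one ESC array. Tsc1, an HSP90 co-chaperone better known as an mTOR inhibitor, rose by 1.19 ± 0.29, and Sugt1, an HSP90 partner at kinetochores, fell by 0.86 ± 0.22. Under the floor both calls ended (adjusted p = 0.0705 and 0.0505), though neither gene has a value under 6. Among the fits that left out an array, that of Tsc1 held only without NPC replicate 3 and that of Sugt1 only without ESC replicate 3.

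Of 16 CCT partners and prefoldin subunits 0 rose and 2 fell. Pdcl2, a phosducin-like protein known from the germline, had 1.32, 2.32 and 2.23 in NPC, against 8.68, 8.53 and 8.72 in ESC. It fell by 6.69 ± 0.31 (limma adjusted p = 0.000132). Its NPC values lie at the bottom of the scale, and under the floor of 6 the fall was 2.65. Prefoldin subunit Pfdn6 fell by 0.76 ± 0.19, a call kept only without NPC replicate 3 among the fits that left out an array. Of 34 ER folding and unfolded protein response genes 2 rose and 2 fell (5.88% each, against 11.1% and 9.54% of all genes). Herpud1, an ER stress target in protein disposal, rose by 1.73 ± 0.30, whereas Derl3, of the same disposal route, fell by 3.58 ± 0.34 and Trib3, a pseudokinase induced by stress, fell by 1.92 ± 0.42. The call of Trib3 ended under the floor (adjusted p = 0.0715), though it has no value under 6. It also ended without ESC replicate 1, NPC replicate 1 or NPC replicate 3. Of 15 mitochondrial folding and protease genes 0 passed (limma, with 3 at an unadjusted p under 0.05), against 20.6% of all genes. With the replicate block 4 fell (26.7%, against 16.7% of all genes).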

How the data were processed

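Per the labels' protocols, total RNA went through a single round of amplification and was coupled to Cy3 for single-colour arrays. The deposited values are log2 signals for 55681 probes on 6 arrays; base 2 was inferred from their range. Sorted values were identical in all columns, so the authors had quantile normalised them, which hides any change that moves most transcripts one way. The submitters' processing notes name limma. No background correction is described and no detection calls were used, so no probe is called above background. Slide and scan were not analysed here.

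Of the probes, 30626 had 1 symbol in the platform annotation, 0 had several and 25055 are unnamed here. All 85 chaperone genes matched RefSeq by gene ID and symbol. For each of 21893 genes the probe of highest mean was kept, with no filter. NPC minus ESC was fitted with limma 3.58.1 (lmFit, eBayes, two-sided) in R 4.3.3, which was tested on simulated data. P-values test the NPC minus ESC difference against the spread between replicate arrays of a single cell line, moderated over all genes. With the replicate block, spread shared by arrays of equal number is taken out first.

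The members, lists and tests were chosen with earlier results of these data known. Arrays given are those of every member past the threshold with a difference of at least 1, of the main chaperones and of Cct2 to Cct8. Others were chosen after seeing values. Named partners are the 3 largest called changes per list, with Hsf2 and Tcp1. Of the listed partners, 3 matched through an older symbol.

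After subtracting group means, arrays with equal numbers in their titles had correlations over genes of 0.189, 0.721 and 0.768. All exceed 0.1, and the numbers were used as pairs, although NPC replicate 1 was closer to ESC replicate 2 (0.402). Alternatives were the replicate block, leaving out each array, the mean of all probes, a floor of 6, testing genes with a mean of at least 6, centring and another variance prior.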

Additional observations from a re-analysis of the deposited data

How the results depend on the processing

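The 14 chaperone genes past the threshold kept their direction in every alternative that tested them, apart from Dnajb13. At the floor of 6 Dnajb13 had no difference left. Hspa12a, Hspb2 and Dnajb13 were not among the genes with a mean of at least 6. The replicate block, that choice of genes and the other variance prior leave each difference as it was, so they could not turn a sign. Of the 14, only Hspb11, Hspa12b and Hspa13 have more than 1 probe, and the mean of all probes ended the calls of these 3. For the others it repeats the same probe. The 8 higher and 6 lower chaperone genes became 15 and 18 with the replicate block, 5 higher with the mean of all probes and 11 lower with centring. Leaving out 1 array gave 6 to 9 higher and 2 to 7 lower; the lowest counts of 2 came without ESC replicate 1 or NPC replicate 1. Over all genes, 2423 higher and 2089 lower became 4147 and 3660 with the replicate block and 1527 and 1297 with values under 6 set to 6. With genes of a mean of at least 6, 1380 of all genes were lower, as fewer genes were tested. Leaving out 1 array gave 1475 to 2644 higher and 1289 to 1923 lower. Of the partner genes, 3 higher and 9 lower became 11 and 21 with the replicate block, 5 lower with genes of a mean of at least 6, and 1 to 5 higher and 3 to 7 lower without 1 array. Among the genes named here, the sign turned without 1 array in some that did not pass: Hsp90b1 (-0.07 without ESC replicate 3, range -0.07 to 0.46), Dnaja1, Cct5 and Hspa2 (0.09, 0.12 and 0.25 without ESC replicate 2; 0.01, 0.16 and 0.02 without NPC replicate 3), Bag6 (-0.05 without ESC replicate 3) and Tcp1 (0.08 without ESC replicate 3, 0.05 without NPC replicate 2). At the other end these fits gave -0.20 for Dnaja1, -0.12 for Cct5, -0.21 for Hspa2, 0.81 for Bag6 and -1.51 for Tcp1. With the mean of all probes it turned in 5 of the 85: Dnajc5 (-0.27), Dnajb14 (0.66), Dnajc14 (0.26), Dnajc11 (-0.24) and Dnajb11 (0.30). The replicate block ended no call among the 14. Where not stated, the cause was not tested. Signals near the bottom of the scale limit the folds of Hspb2, Hspb8, Hspa12a, Hspa12b, Dnajb13, Hsbp1l1, Hsf5, Hspbap1 and Pdcl2. Under the floor of 6 other named genes shrank too. Hspa1a became -0.88, Dnajb4 0.78, Dnajb3 0.84, Dnajc22 -1.67 and Derl3 -3.03, and Cct6b and Dnajc27 had almost no difference left.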
